A study of Mus musculus with 15 samples.

Results

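Filamin A (Flna), filamin C (Flnc), the filamin-binding adaptor migfilin (Fblim1), the co-chaperone Bag3 and the small heat shock proteins Hspb1 and Hspb8 were examined, 6 of the 55416 genes in the count table, chosen by name as genes of the tension-sensing and filamin-turnover machinery. They were measured in 15 cultures of SVI, a conditionally immortalised mouse podocyte line. Podocytes are the epithelial cells that wrap the glomerular capillaries of the kidney, and the differentiated cells were grown on flexible silicone membranes that could be pulled up and down, as a model of raised glomerular pressure. Experiment 1 held 3 unstretched cultures and 6 cultures under low stretch, labelled with a deflection of 5 to 6 mm. Experiment 2 held 3 unstretched cultures and 3 cultures under high stretch, labelled with 7 to 8 mm. All groups shared the same cell line and the labels name no gene deleted or added, so the only labelled difference within an experiment was stretch. Amplitude therefore cannot be told apart from experiment, and stretched cultures were set only against unstretched cultures from the same experiment. The labels do not say whether the cultures came from separate thaws or passages, so the p-values measure the spread between these samples, which may be technical.

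Filamins are long dimeric proteins that crosslink actin filaments and tie them to integrins and other membrane proteins, and their immunoglobulin-like repeats unfold under pulling force. Bag3 recognises such force-unfolded filamin together with Hspb8 and the Hsp70 chaperones, and hands it to the ubiquitin ligase Stub1 and to autophagy, a route known as chaperone-assisted selective autophagy. Hspb1, called Hsp25 in the mouse, binds actin and damaged filamin, and migfilin links filamin to kindlin and VASP at cell adhesions. Heat shock factor 1 (Hsf1) is the textbook activator of Bag3 and of small heat shock protein genes, while TEAD factors, the DNA-binding partners of the mechanosensitive co-activators YAP and TAZ, and serum response factor are regulators of many cytoskeletal genes.

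Sequences near the start sites of the members were read from RefSeq promoter windows (build GRCm38.p6) that hold 250 bases before and 50 bases after a gene's start. All 6 members matched, with 8 windows. The windows were searched on both strands for GAANNTTC, a tail-to-tail pair of heat shock factor half-sites. GAANNTTC was found in 3 of the 8 member windows, those of Bag3, Hspb1 and Hspb8, against 7.86% of all 32851 windows. One of the spellings of this pair, GAAGTTTC, was present in all 3 chaperone genes and in 1.21% of all windows, and this octamer, which lies within the first motif, was singled out after the sequences had been read. The matches are shown because the 3 chaperone genes that carry them differed widely in level and in their values under stretch. Capitals mark GAANNTTC and, in the Hspb1 sequence, also GGAATG, the TEAD core read on the other strand. The Bag3 match begins 43 bases and the Hspb8 match 3 bases into the transcribed sequence, and the Hspb1 matches begin 117 and 97 bases before the start.
Hspb1, the 250 bases before the start, plus strand, chr5:135887669-135887918: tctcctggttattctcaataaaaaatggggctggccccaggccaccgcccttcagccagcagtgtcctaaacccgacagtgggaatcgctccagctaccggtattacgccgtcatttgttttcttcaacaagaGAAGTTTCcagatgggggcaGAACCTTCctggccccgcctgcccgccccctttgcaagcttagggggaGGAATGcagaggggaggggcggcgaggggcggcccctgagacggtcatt
Bag3, plus strand, chr7:128523603-128523632: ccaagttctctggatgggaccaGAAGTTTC
Hspb8, minus strand, chr5:116422844-116422873: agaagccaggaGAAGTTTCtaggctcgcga

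The TEAD core, CATTCC or its reverse complement GGAATG, was found in 5 of the 8 member windows and in 14.7% of all windows. These 5 windows belong to 4 of the 6 genes, Flna, Flnc, Fblim1 and Hspb1, and the Flnc windows overlap and hold the same match. These genes are shown side by side because Flna, Fblim1 and Hspb1 had higher means under both amplitudes whereas Flnc, with the same 6 letters, did not. Bag3, whose window lacks the core, also had higher means under both amplitudes, with log2 fold changes of 0.29 and 0.38. The other Fblim1 window lacks the core as well. A link between the core and the stretch values was not tested. The CArG box, the site of serum response factor, was in none of the 8 member windows and in 1.63% of all windows. A match is a string of letters in this window, not a measured binding site. Capitals mark the core.
Flna, minus strand, chrX:74246663-74246692: ggcgttgtggggCATTCCaacgggaggggc
Fblim1, minus strand, chr4:141606106-141606135: ctgtgagtcagaCATTCCgtgcagctcagt
Flnc, plus strand, chr6:29433140-29433169: cgggccgggcggCATTCCtgggaggccggc
Hspb1, plus strand, chr5:135887858-135887887: agcttagggggaGGAATGcagaggggaggg

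Depth was high, with 262 to 397 M counts (megacounts) per library in experiment 1 and 172 to 298 M in experiment 2. Levels are given as CPM (counts scaled to library size with TMM over all 15 libraries) where a gene is compared with itself, and as TPM (transcript abundance, which also divides by transcript length) where genes are compared with each other. The actin-bundling podocyte genes Actn4 and Synpo were abundant, with lowest values of 577 and 256 CPM, but the slit diaphragm gene Nphs1, a defining podocyte marker, was nearly absent at no more than 1.00 CPM. The experiments lay apart on the first principal component of log2 CPM (70.2% of the variance), with unstretched replicate 3 of experiment 2 at 32.5, apart from the other 5 libraries of that experiment at 86.5 to 163. The sample codes of experiment 1 follow one another without a gap and mark no batches. They were divided here into 3 runs of neighbours, each opening with 1 unstretched culture followed by 2 low-stretch cultures. Low-stretch replicates 1 and 2 lie beside unstretched replicate 1, replicates 3 and 4 beside replicate 2, and replicates 5 and 6 beside replicate 3.

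Under low stretch, 0 of the 6 members passed the test (edgeR quasi-likelihood, Benjamini-Hochberg adjusted p under 0.05), against 5.45% of the 21672 genes tested in either direction and 1.85% as higher, although 4 had log2 fold changes from 0.29 to 1.53. Under high stretch 1 of 6, Fblim1, rose, against 3.47% of 18524 genes in either direction and 1.31% as higher. The median log2 fold change of the members was 0.39 under low and 0.58 under high stretch, beside 0.01 and -0.02 over all genes tested. Groups did not overlap, with stretched cultures higher, for 2 members under low stretch (Bag3 and Hspb1) and for 3 under high stretch (Flna, Hspb1 and Fblim1), against 7.81% and 9.97% of all genes. With the run of neighbouring codes as a block in experiment 1, 4 of the 6 members (Flna, Fblim1, Hspb1 and Bag3) passed as higher under low stretch, in a fit that called 13.7% of all genes as higher. That fit is an alternative to the main one, and the labels do not say what the codes stand for. With gene TPM in limma, an alternative chosen after seeing the data that left Hspb8 out, 0 of 5 members passed under low stretch (7.3% of 13295 genes) and 3 of 5, Flna, Hspb1 and Fblim1, under high stretch (2.73% of 11948 genes). With the run as a block in experiment 2, 2 of 6 members, Hspb1 and Fblim1, passed as higher, in a fit that called 3.31% of genes as higher.

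**Figure D1:**
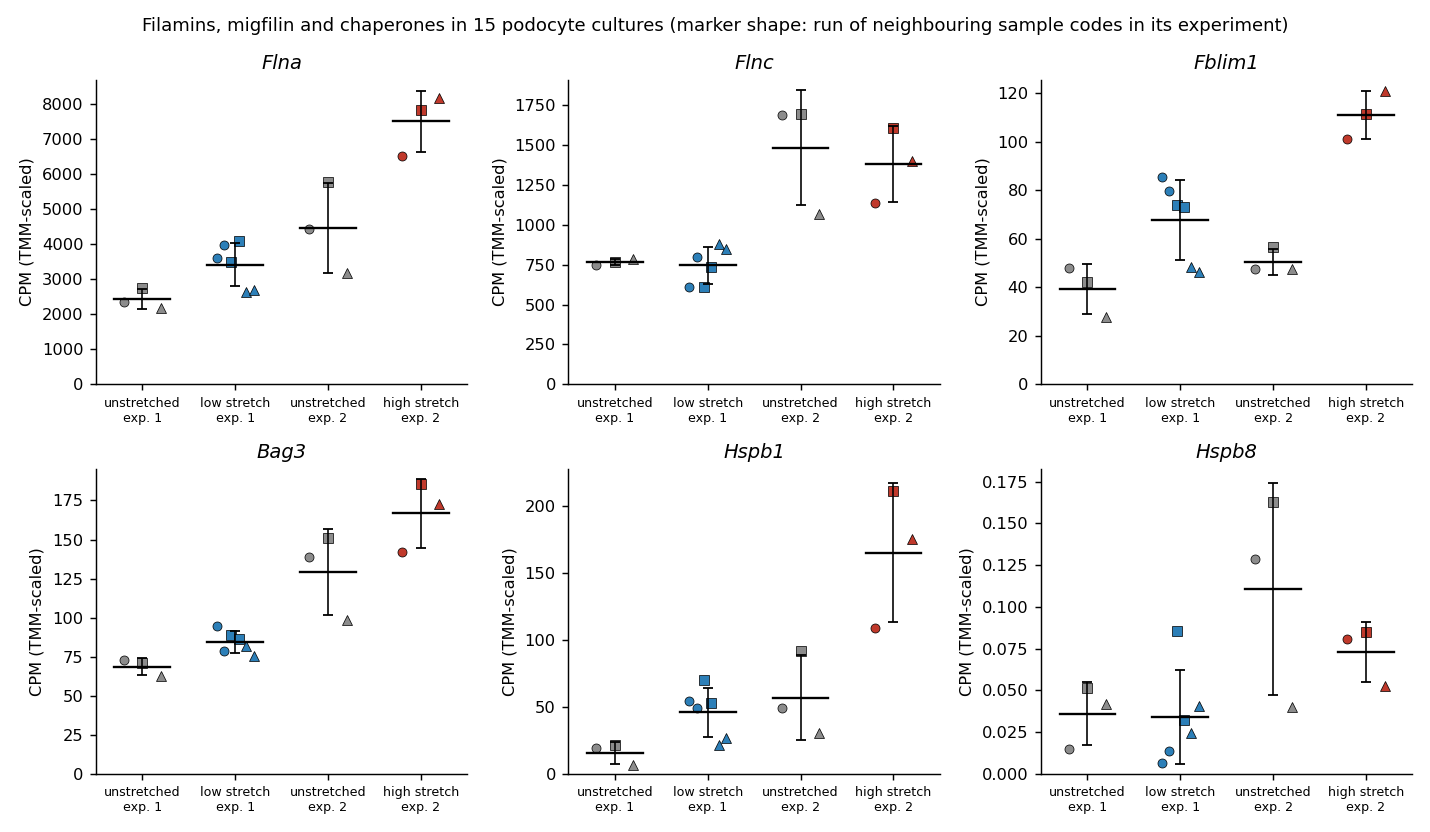
CPM of the 6 genes in each culture, by group (vertical axes start at 0 and differ between panels); points are cultures, marker shapes the 3 runs of neighbouring sample codes within an experiment, horizontal lines means and error bars 1 SD. In experiment 1 the triangles, unstretched replicate 3 and low-stretch replicates 5 and 6, are the lowest of their groups for Hspb1, Fblim1 and Flna, and Hspb8 stays below 0.2 CPM.

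Filamin A was the most abundant member in every culture. The unstretched cultures of experiment 1 held 2343, 2739 and 2184 CPM, and the 6 low-stretch cultures held 3594, 3988, 3492, 4079, 2646 and 2703 CPM. Replicates 5 and 6 fell within the unstretched range while replicates 1 to 4 lay above it. The means were 3417 ± 617 CPM (SD, n = 6) and 2422 ± 286 CPM (SD, n = 3), with a log2 difference of 0.49 (SE 0.16, adjusted p = 0.103, edgeR) that did not pass. In experiment 2 the unstretched cultures held 4423, 5773 and 3191 CPM and the high-stretch cultures 6520.2, 7833 and 8167 CPM, so that the groups did not overlap. The log2 fold change was 0.77 (SE 0.24, adjusted p = 0.165, edgeR).

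The call on Flna depended on how the spread was modelled. Within the runs of experiment 1 the log2 ratio of stretched to unstretched CPM was 0.69, 0.47 and 0.29, and the fit with the run as a block gave an adjusted p of 0.00304 (edgeR). Without low-stretch replicate 5, Flna, Fblim1 and Hspb1 all passed, with log2 fold changes of 0.56, 0.86 and 1.68 (adjusted p = 0.0483, 0.0442 and 0.0395, edgeR). In experiment 2 the ratios by replicate number were 0.56, 0.44 and 1.36, the last against unstretched replicate 3, the library that stood apart. Without that library the log2 fold change was 0.61 (adjusted p = 0.0639, edgeR), without unstretched replicate 2 it was 1.01 and passed (0.0483), and with gene TPM in limma it was 0.70 (adjusted p = 0.0391).

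Markers of other cell types were also examined in stretched and unstretched cultures. A list of 5 mesangial and smooth muscle genes, of which 2 were below a mean of 1 CPM, was dominated by Acta2, smooth muscle actin. Its summed level was 1443 to 2262 CPM unstretched and 1773 to 4314 CPM under low stretch, and 2966 to 8109.96 CPM unstretched and 7086 to 11502 CPM under high stretch, with overlap in both experiments. Of its 5 genes 1 passed under low stretch and 0 under high stretch, beside 5.45% and 3.47% of all genes. The genes of this list did not all move in the same direction. Acta2 had log2 fold changes of 0.86 and 0.98 (adjusted p = 0.136 and 0.269, edgeR). Cnn1, another abundant gene of the list, had 0.49 and 0.39 (0.138 and 0.722). The receptor gene Pdgfrb fell under low stretch (-0.56, adjusted p = 0.0199, edgeR) and had -0.42 under high stretch (0.357). Near the floor, at group means of 0.175 to 2.22 CPM, the desmin gene Des had -0.93 and -1.74 (0.139 and 0.359). Myh11, with group means of no more than 0.330 CPM, had 0.50 and -0.56 (0.308 and 0.635).

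A list of 4 kidney tubule genes, 2 of them below a mean of 1 CPM, summed to 993 to 1372 CPM unstretched and 482 to 802 CPM under low stretch, and to 942 to 1261 CPM unstretched and 324 to 477 CPM under high stretch, lower without overlap in both experiments. Of the 2 genes tested, 1 passed at each amplitude, beside 5.45% and 3.47% of all genes, and it was not the same gene. Lrp2, the endocytic receptor megalin, fell under low stretch (-0.65, adjusted p = 0.0227, edgeR). Under high stretch it had -0.39 with overlap (0.733). Aqp1, a water channel, fell under high stretch (-3.62, adjusted p = 0.0135, edgeR). Under low stretch it had -1.85 with overlap (0.133). On the list of podocyte genes, of which 9 could be tested, 0 passed under low stretch and 1 under high stretch, beside 5.45% and 3.47% of all genes. It was the transcription factor gene Wt1, which fell from a mean of 2.81 to 0.545 CPM (-2.36, adjusted p = 0.0311, edgeR). The part of these cell type markers in the values of the members was not tested.

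Filamin C, the family member best known from striated muscle, did not follow filamin A. It was measured at 747, 765 and 788 CPM without stretch and at 608.5, 799, 608, 734, 881 and 847 CPM under low stretch, so the stretched values lay on both sides of a narrow unstretched range. The log2 fold change was -0.05 (SE 0.13, adjusted p = 0.856, edgeR). In experiment 2 it was 1691, 1697 and 1065 CPM without stretch and 1138, 1607 and 1398 CPM under high stretch, again overlapping, with a log2 fold change of -0.08 (SE 0.23, adjusted p = 0.947, edgeR). In TPM the high-stretch cultures, at 181, 203 and 200.4, lay just below the unstretched ones at 239, 219.8 and 207.5. That difference was -0.19 on the log2 scale (SE 0.10, adjusted p = 0.484, limma).

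On the per-length scale the balance of Flna and Flnc can be read directly. Flnc held 21.3% ± 2.26 of the summed TPM of this pair in the unstretched cultures of experiment 1 (SD, n = 3). Under low stretch the share of Flnc was 16.6% ± 4.19 (SD, n = 6), at 13.3% to 22.2% against 19.1% to 23.7% without stretch, so the groups overlapped. Under high stretch it was 14.1% ± 0.916 against 23.3% ± 2.01 without stretch (SD, n = 3 each), and the ranges of 13.6% to 15.2% and 21.3% to 25.3% did not overlap. These shares were not tested, and a lower share of Flnc shows unequal change of the pair, not a lower level of Flnc.

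**Figure D2:**
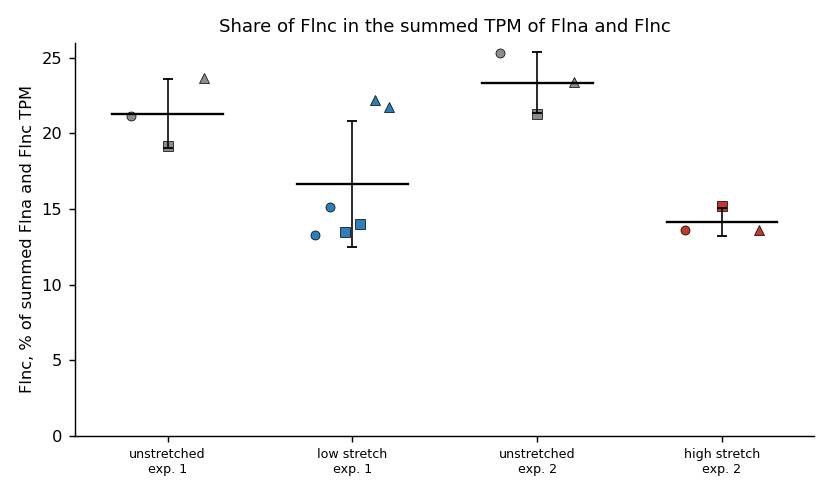
Share of Flnc in the summed TPM of Flna and Flnc, in percent, for each culture by group; points are cultures, marker shapes the runs of neighbouring sample codes, lines means and bars 1 SD. The 3 high-stretch cultures hold 13.6% to 15.2% Flnc, below the 21.3% to 25.3% of their unstretched cultures, while low-stretch replicates 5 and 6 (triangles) lie within the range of the unstretched cultures of experiment 1.

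Migfilin (Fblim1), the LIM protein that couples filamin to kindlin at adhesions, was the only member that passed at high stretch. Its level was 47.7, 56.8 and 47.4 CPM in the unstretched cultures and 101, 111 and 121 CPM in the high-stretch cultures, which lay well apart. The log2 fold change was 1.15 (SE 0.16, adjusted p = 0.0131, edgeR). Under low stretch the unstretched cultures held 48.1, 42.3 and 27.9 CPM and the stretched cultures 85.5, 79.9, 74.2, 73.3, 48.2 and 46.3 CPM. Low-stretch replicate 6 fell below unstretched replicate 1, but within each run the log2 ratios were 0.78, 0.80 and 0.76. The log2 fold change over the groups was 0.78 (SE 0.24, adjusted p = 0.0812, edgeR), and the adjusted p was 6.62e-06 with the run as a block. The high-stretch call held in 3 of 6 fits that each left out a culture and was lost without high-stretch replicate 1, high-stretch replicate 3 or unstretched replicate 1 (adjusted p 0.0602, 0.0944 and 0.0947). Without unstretched replicate 3 of experiment 2 it was 1.14 (adjusted p = 0.00329, edgeR).

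Among 17 filamin partners and LIM proteins of the zyxin family, a list that holds Fblim1, 16 could be tested. Under low stretch 1 rose, 0 fell and 15 did not pass, and under high stretch 2 rose, 1 fell and 13 did not pass, beside 5.45% and 3.47% of all genes called in either direction. The median log2 fold changes of the list were 0.14 and 0.18, beside 0.01 and -0.02 over all genes. Refilin B (Rflnb), which binds filamin A and helps bundle actin, rose from 8.40 ± 2.98 CPM (SD, n = 3) to 19.0 ± 5.34 CPM (SD, n = 6) under low stretch, with a log2 fold change of 1.17 (SE 0.29, adjusted p = 0.0446, edgeR). Under high stretch it rose from 9.02 ± 2.61 to 35.8 ± 4.57 CPM (SD, n = 3 each), with a log2 difference of 2.01 (SE 0.26, adjusted p = 0.00911, edgeR). Stretched and unstretched cultures did not overlap at either amplitude. Arhgap24, a Rac-directed GTPase-activating protein bound by filamin A and linked to podocyte disease, fell from 63.0 ± 7.49 to 32.4 ± 4.62 CPM (SD, n = 3 each) under high stretch, a log2 fold change of -0.94 (SE 0.19, adjusted p = 0.0424, edgeR). Its low-stretch log2 fold change was -0.49 (SE 0.13, adjusted p = 0.0579). At both amplitudes the stretched cultures lay below the unstretched ones for Arhgap24, without overlap. Zyxin (Zyx), the founding member of its LIM family, had log2 fold changes of 0.21 and 0.19 (adjusted p = 0.0978 and 0.880, edgeR).

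Of the fits that each left out a culture, Rflnb kept its call in 2 of 9 under low stretch, those without low-stretch replicate 5 or 6 (adjusted p up to 0.176 in the others), and in 4 of 6 under high stretch, all but those without high-stretch replicate 1 or 3 (0.0556 and 0.0651). Arhgap24 kept its high-stretch call in 2 of 6, those without unstretched replicate 2 or 3, with adjusted p up to 0.263 in the others.

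**Figure D3:**
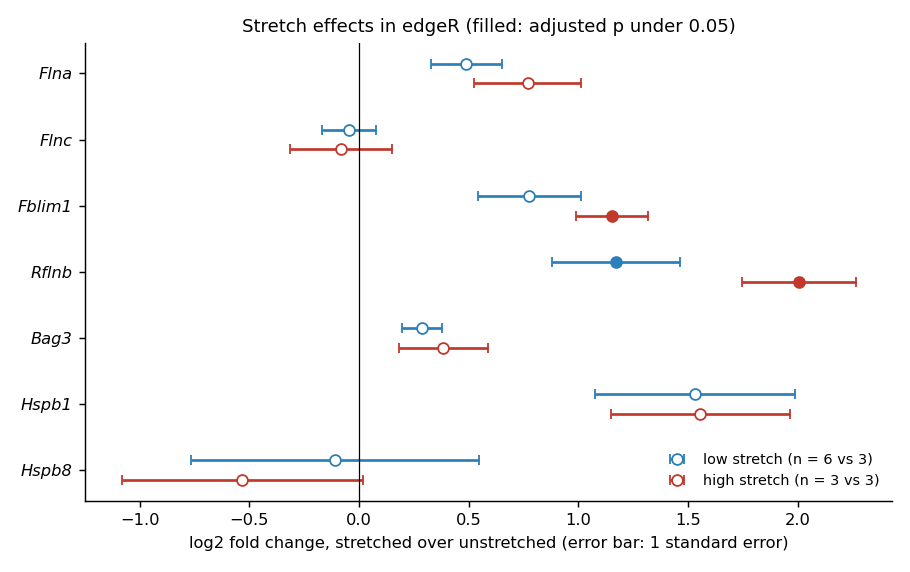
log2 fold changes of stretched over unstretched cultures from edgeR for the 6 members with Rflnb; horizontal bars are 1 standard error, filled circles have an adjusted p under 0.05. Rflnb is filled at both amplitudes, Fblim1 at high stretch (1.15), and the bars of Flnc and Bag3 lie lower than that of Hspb1 (1.53 and 1.56).

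Hspb1, the small heat shock protein that caps and protects actin filaments, had the largest fold differences of the members. Without stretch it was measured at 19.6, 21.3 and 6.25 CPM, and under low stretch at 54.4, 49.1, 70.1, 52.7, 21.4 and 26.9 CPM. The groups did not overlap, by a margin of 21.4 against 21.3 CPM, and the lowest stretched cultures, replicates 5 and 6, lay in the run whose unstretched culture held 6.25 CPM. Within the runs the log2 ratios were 1.40, 1.53 and 1.95. Over the groups the log2 fold change was 1.53 (SE 0.45, adjusted p = 0.0765, edgeR), which did not pass, and the adjusted p was 3.21e-05 with the run as a block.

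Under high stretch Hspb1 reached 109, 211 and 175 CPM, against 48.7, 91.7 and 30.2 CPM in the unstretched cultures, again with no overlap. The log2 fold change was 1.56 (SE 0.41, adjusted p = 0.0899, edgeR). The ratio by replicate number was 1.16, 1.20 and 2.54 on the log2 scale, the last against unstretched replicate 3, and without that library the log2 fold change was 1.28 (adjusted p = 0.0277, edgeR). It also passed without unstretched replicate 2, at 2.09 (adjusted p = 0.0115), and with the run of neighbouring codes as a block, at 1.65 (adjusted p = 1.95e-06). DESeq2 passed Hspb1 at both amplitudes (adjusted p = 0.00356 and 0.00362). Hspb1 is a gene with a processed copy, Hsp25-ps1, whose counts averaged 1.50 CPM over the 15 cultures and were highest under high stretch (3.83 ± 1.22 CPM, SD, n = 3). Reads that match both copies could have been assigned to either or left out, so the Hspb1 count is uncertain by an amount that was not measured.

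**Figure D4:**
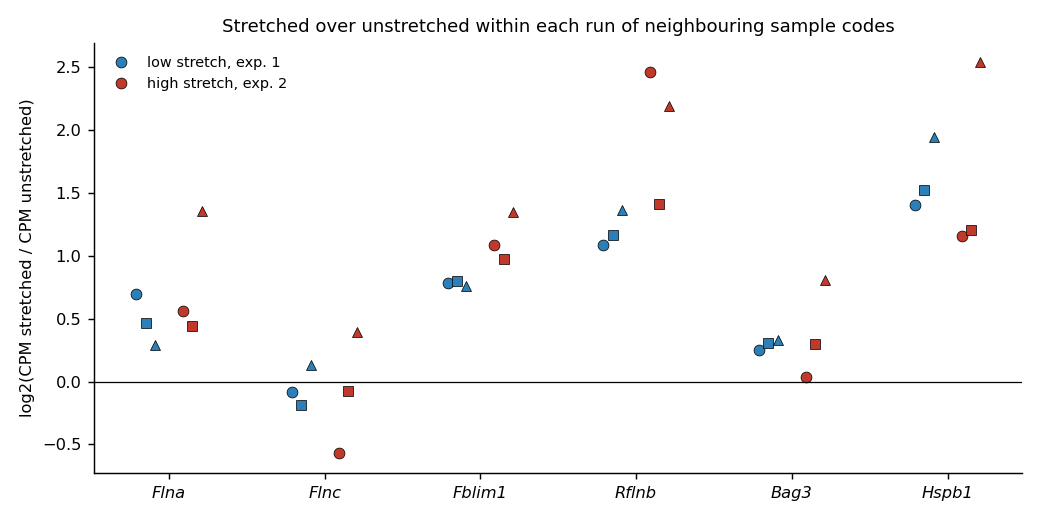
log2 ratio of stretched to unstretched CPM within each run of neighbouring sample codes, for 5 members with Rflnb; each low-stretch point is the mean of 2 cultures over 1 unstretched culture, each high-stretch point 1 culture over 1. All points of Fblim1, Flna, Bag3 and Hspb1 lie above 0, those of Flnc lie on both sides, and the red triangles are set against unstretched replicate 3 of experiment 2.

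Bag3, the co-chaperone at the centre of filamin turnover, showed small differences. The unstretched cultures of experiment 1 held 72.6, 71.0 and 62.4 CPM and the low-stretch cultures 94.3, 78.3, 89.2, 86.1, 82.0 and 75.2 CPM. Every stretched culture was above every unstretched one, with a log2 fold change of 0.29 (SE 0.09, adjusted p = 0.0879, edgeR) that did not pass, and with an adjusted p of 0.00696 with the run as a block. In experiment 2 the values were 139, 151 and 98.5 CPM without stretch and 142, 185 and 172 CPM under high stretch, with overlap through unstretched replicate 2. The log2 fold change there was 0.38 (SE 0.20, adjusted p = 0.472, edgeR). In TPM, where the unstretched cultures lay close together at 66.4 to 67.4 and the high-stretch cultures at 80.1 to 84.6, it was 0.30 (SE 0.09, adjusted p = 0.152, limma). The annotation places an unconfirmed transcript, 2610306O10Rik, over 612 bases of Bag3 on the same strand, so reads of that stretch could belong to either.

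The 12 genes listed for chaperone-assisted selective autophagy, Bag3 and Hspb8 among them, were all tested and 0 passed at either amplitude. Over all genes 5.45% and 3.47% were called in either direction, so that 0 in a list this short is near those shares. Their median log2 fold changes were 0.22 and 0.25, beside 0.01 and -0.02 over all genes, with 10 and 9 of 12 positive. Hspa8, the constitutive Hsp70 that works with Bag3, was measured at 1907 ± 209 CPM (SD, n = 3) without stretch and 2515 ± 335 CPM (SD, n = 6) under low stretch, with log2 fold changes of 0.39 at both amplitudes (adjusted p = 0.102 and 0.450, edgeR). Stub1, the ubiquitin ligase CHIP, had log2 fold changes of 0.21 and -0.02 (adjusted p = 0.422 and 0.989). Sqstm1, the autophagy receptor p62, had 0.23 at both amplitudes (adjusted p = 0.336 and 0.833). Synpo2, the filamin-binding adaptor of the route, had -0.70 and -0.59 (adjusted p = 0.0962 and 0.350). The inducible Hsp70 genes Hspa1a and Hspa1b are near-identical copies, so their split is uncertain, and neither passed. Low-stretch replicate 1 stood apart, with 188 CPM of Hspa1b against 12.9 to 43.7 CPM in the other 5 low-stretch cultures and 10.6 to 22.3 CPM unstretched, and 72.2 CPM of Hspa1a against 6.08 to 19.4 CPM. Hspa1b had a log2 fold change of 1.68 under low stretch (adjusted p = 0.279, edgeR), which was 0.52 without that culture (0.485). For Hspa1a it was 1.48 (0.298), and 0.46 without it (0.519). Under high stretch both were higher without overlap, at 0.66 for Hspa1b and 0.57 for Hspa1a (0.156 and 0.291). Among the 6 BAG family genes 0 passed at either amplitude, again near the shares over all genes, with medians of 0.21 and 0.22.

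Hspb8, the partner with which Bag3 recognises its clients, was nearly absent from these cells. Its count was between 2 and 26 in every library. The unstretched cultures of experiment 1 held 0.0148, 0.0514 and 0.0415 CPM and the low-stretch cultures 0.00639 to 0.0855 CPM, with a median of 0.0283. The unstretched cultures of experiment 2 held 0.129, 0.163 and 0.0400 CPM and the high-stretch cultures 0.0809, 0.0851 and 0.0524 CPM. Both pairs of groups overlapped, and the log2 fold changes of -0.11 (SE 0.66) and -0.53 (SE 0.55) had adjusted p of 0.938 and 0.803 (edgeR). At these counts a difference of that size was not detectable.

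Of 9 small heat shock protein genes 7 could be tested and 0 passed at either amplitude, beside 5.45% and 3.47% of all genes. The median log2 fold changes of the list were 0.26 and -0.18, beside 0.01 and -0.02 over all genes. Besides Hspb1 the list held an abundant member, Cryab, the alpha-B crystallin that chaperones desmin and other filaments. It was measured at 296 ± 17.3 CPM (SD, n = 3) and 321 ± 40.4 CPM (SD, n = 6) in experiment 1, and at 818 ± 309 and 709.9 ± 147 CPM (SD, n = 3 each) in experiment 2. Its log2 fold changes were 0.11 and -0.18 (adjusted p = 0.572 and 0.899, edgeR). On the per-length scale Cryab lay above Hspb1 in every group, with 886 ± 46.6 TPM against 43.1 ± 22.5 TPM in the unstretched cultures of experiment 1 and 1322 ± 110 TPM against 279 ± 57.9 TPM under high stretch (SD, n = 3 each).

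Of 22 genes of the wider heat shock response, all tested, 2 rose and 0 fell under low stretch, beside 1.85% of all genes called higher. Under high stretch 0 passed, beside 3.47% of all genes called in either direction. Their median log2 fold changes were 0.31 and 0.23, beside 0.01 and -0.02 over all genes, with 21 and 18 of 22 positive. The 2 that rose were Dnaja1, an Hsp40 co-chaperone of Hsp70 (0.32, SE 0.07, adjusted p = 0.0315), and Chordc1, an Hsp90 co-chaperone (0.35, SE 0.09, adjusted p = 0.0435, edgeR). Dnaja1 kept its call in 4 of 9 fits that each left out a culture and Chordc1 in 3 of 9, with adjusted p up to 0.145 and 0.147 in the others. Under high stretch their log2 fold changes were 0.12 and 0.05 (adjusted p = 0.941 and 0.974). Hsf1 itself was measured at 57.9 ± 3.20 CPM (SD, n = 3) without and 60.1 ± 4.22 CPM (SD, n = 6) with low stretch, a log2 fold change of 0.05 (adjusted p = 0.755), and had -0.02 under high stretch (adjusted p = 0.989, edgeR).

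**Figure D5:**
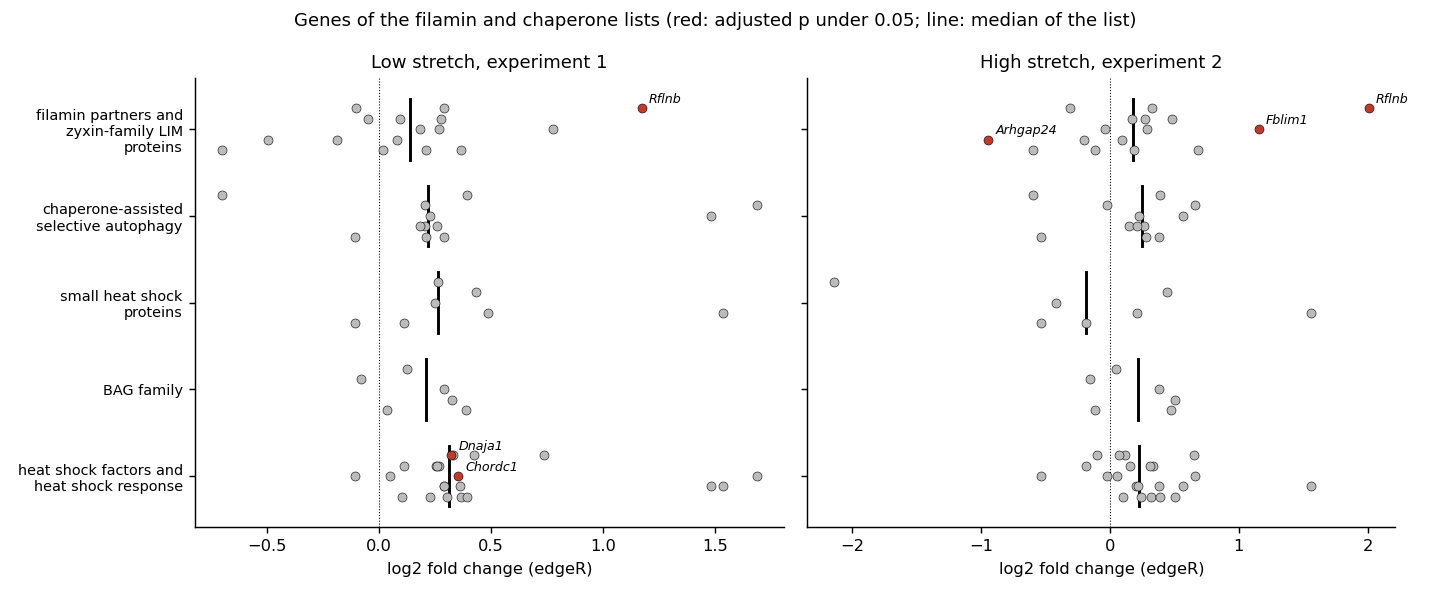
log2 fold changes (edgeR) of the tested genes of the 5 filamin-partner and chaperone lists under low stretch (left) and high stretch (right); points are genes, a gene can be in several lists, red points have an adjusted p under 0.05 and vertical lines are list medians. The horizontal scales differ; Rflnb is red on both sides, Fblim1 and Arhgap24 on the right, Dnaja1 and Chordc1 on the left.

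The stretch effects of the experiments were compared as the high-stretch effect minus the low-stretch effect over all 15 cultures, in which amplitude cannot be told apart from experiment. This contrast called 0 of 22015 genes (0% by edgeR, with 547 at an unadjusted p under 0.05, and 0 by DESeq2), and 0 of the 6 members. The difference on the log2 scale was 0.35 (SE 0.31) for Fblim1, 0.25 (SE 0.28) for Flna, 0.07 (SE 0.21) for Bag3, -0.07 (SE 0.26) for Flnc, -0.00 (SE 0.64) for Hspb1 and -0.45 (SE 0.93) for Hspb8, and every member had an adjusted p of 1.00 (edgeR). The call on Fblim1 at high stretch alone is therefore not a measured difference between the stretched groups' effects.

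Most genes differed between the unstretched cultures of the experiments. The share of members called was near that of all genes called in either direction, but above that of genes called higher. Between the unstretched cultures of experiment 2 and those of experiment 1, 4 of 6 members were higher and passed, against 62.5% of 20707 genes called in either direction and 29.7% called higher. The log2 differences were 0.87 for Flna (SE 0.25, adjusted p = 0.0170), 0.94 for Flnc (SE 0.22, adjusted p = 0.00788), 0.90 for Bag3 (SE 0.20, adjusted p = 0.00683) and 1.84 for Hspb1 (SE 0.52, adjusted p = 0.0157, edgeR). In each of these 4 genes the groups did not overlap, against 35.2% of all genes with experiment 2 higher. Fblim1, at 0.34 (SE 0.23, adjusted p = 0.215), and Hspb8, at 1.54 (SE 0.63, adjusted p = 0.0612), did not pass.

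On gene TPM in limma the same differences were smaller, and the median over all genes was -0.44 against -0.07 on CPM. That fit called 57.7% of 13000 genes and 1 of the 5 members it could test. Flnc, at 0.36, kept its call (adjusted p = 0.0233), while Flna, at 0.19 (0.262), Bag3, at 0.30 (0.0591), and Hspb1, at 1.29 (0.0649), did not. Flna also lost its edgeR call without unstretched replicate 1 or 3 of experiment 1 (adjusted p = 0.0667 and 0.0689). Without unstretched replicate 3 of experiment 2 the edgeR differences of the 4 genes were 1.01, 1.08, 1.02 and 2.09 in the same order, and Hspb8 passed (1.95, adjusted p = 0.00988). A list of 8 genes of skeletal and cardiac muscle, the tissue in which Flnc and its chaperones are best known, was also read. Of the 8 genes 7 were under a mean of 1 CPM and 1 was at 0 in all cultures. They summed to 0.868 to 1.22 CPM in the unstretched cultures of experiment 1 and to 0.768 to 22.3 CPM in those of experiment 2. Of 5 that could be tested 4 passed as higher in experiment 2 (edgeR), against 29.7% of all genes, at group means of up to 5.15 CPM. The median log2 difference of those tested was 3.61, beside -0.07 over all genes. The mitochondrial share of counts was 3.65% to 4.63% in the unstretched cultures of experiment 1 and 1.15% to 2.60% in those of experiment 2, without overlap, the highest of the latter in replicate 3. The part of these measures in the difference was not tested, and experiment cannot be told apart from anything else that changed between the culture sets.

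Per unit of length, the order of the members was similar in all groups, with Flna first and Hspb8 last. Without stretch in experiment 1 the means were 642 ± 79.8 TPM for Flna, 172 ± 2.25 for Flnc, 54.5 ± 4.65 for Bag3, 43.1 ± 22.5 for Hspb1, 30.6 ± 8.62 for Fblim1 and 0.0442 ± 0.0156 for Hspb8 (SD, n = 3). The ranges of Bag3, Hspb1 and Fblim1 overlapped their neighbours in that order, whereas Flna, Flnc and Hspb8 stood clear. Under low stretch Hspb1, at 115 ± 43.1 TPM (SD, n = 6), overlapped both Flnc above it and Bag3 below it. Under high stretch Hspb1, at 279 ± 57.9 TPM, was above Flnc, at 195 ± 11.9 TPM (SD, n = 3 each), in every culture. Flna reached 1184 ± 75.0 TPM there, and Bag3 and Fblim1 were at 82.3 ± 2.28 and 54.3 ± 5.24 TPM.

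Transcript usage, the share of a gene's TPM that each of its transcripts holds, was examined because the study asked about alternative splicing. Bag3 is listed with a single transcript, Hspb1 was almost entirely Hspb1-201 (group means of 99.7% to 99.9%), and Hspb8 was all Hspb8-201. Flna has 15 listed transcripts, of which Flna-201 held 56.7% ± 2.38 without and 57.8% ± 2.21 with low stretch (SD, n = 3 and 6), and 59.1% ± 1.79 without and 56.7% ± 2.43 with high stretch (SD, n = 3 each). Flnc-201 held 89.9% to 92.0% of Flnc and Fblim1-202 77.4% to 83.2% of Fblim1 as group means. None of the 7 member transcripts tested under low stretch and none of the 9 tested under high stretch passed (limma), against 0.018% of 27822 and 0% of 23498 transcripts, with 2775 and 1902 at an unadjusted p under 0.05. The lowest adjusted p of a member transcript was 0.566 for Flna-203 under low stretch and 0.686 for the same transcript under high stretch. Its share of Flna was 10.4% ± 1.14 and 13.6% ± 2.89 in experiment 1 and 15.1% ± 2.67 and 19.2% ± 2.72 in experiment 2, with the higher mean under stretch in each. The groups overlapped in both, at 9.47% to 11.7% unstretched and 9.37% to 16.9% under low stretch. In experiment 2 they were 13.2% to 18.2% and 17.5% to 22.3%.

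Across the 15 cultures, after each gene's mean in its experiment was subtracted, 4 members varied together. Pearson's r of log2 CPM was 0.92 for Flna with Hspb1, 0.93 for Hspb1 with Fblim1, 0.90 for Flna with Fblim1 and 0.87 for Flna with Bag3. It was 0.88 for Bag3 with Hspb1 and lowest, at 0.79, for Bag3 with Fblim1. Flnc stood outside this group, with r of 0.03 against Flna and -0.28 against Fblim1, and so did Hspb8, with r of -0.03 against Flna. The points share the stretch groups, the runs and the library scaling, so these values are a description of n = 15 samples. Genes outside the set reached higher r with Flna, Fblim1, Hspb1 and Bag3, as given below.

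Among 12932 genes compared in the same way, the closest to Flna were Ehbp1l1 (r = 0.985), the actin-associated LIM protein gene Csrp1 (0.977) and Tgfb1i1 (0.973), which encodes the focal adhesion protein Hic-5. Closest to Fblim1 were the receptor gene Fgfr1 (0.978), the calcium channel gene Itpr3 (0.978) and the sialyltransferase gene St3gal1 (0.977). Closest to Bag3 were Pias3 (0.988), the calpain gene Capn1 (0.976) and Dok1 (0.976), and closest to Hspb1 its own pseudogene Hsp25-ps1 (0.984), 5033430I15Rik (0.981) and the actin-binding coactosin-like gene Cotl1 (0.977). The nearest genes of Flnc were the anion exchanger gene Slc4a2 (0.912), Tm9sf4 (0.910) and Carmil3 (0.905). Those of Hspb8, Arpc5l (0.919), Cenpv (0.906) and Rpa3 (0.894), rest on very few Hspb8 counts.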

How the data were processed

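Poly(A) RNA from 15 SVI cultures was sequenced as stranded paired-end libraries, per the labels' protocols. The authors deposited whole-number counts for 55416 genes and TPM for 140789 transcripts. STAR 2.7.5c, featureCounts, Subread 2.0.0, DESeq2 1.38.3, Salmon 1.9.0 and the build mm39 are named, without roles, per the submitters' processing notes. The strand setting of the counting is not given in the sources used here. Totals were 172 to 397 M counts (megacounts) per library.

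Groups came from the sample titles. Gene names came from GENCODE M21, which matched 137189 of the deposited transcripts, and promoter windows from RefSeq. No gene coordinates other than those windows are given, since the reference differs from mm39.

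Counts were tested in R 4.3.3 with edgeR 4.0.16 (TMM, filterByExpr, quasi-likelihood F test, Benjamini-Hochberg over all genes tested, threshold 0.05) within each experiment. The unstretched groups were compared in a fit of their own, and the difference of effects in a fit of all samples. Standard errors were obtained as the absolute log2 fold change over the root of the F statistic. Gene TPM is the sum of the deposited transcript TPM. Usage was tested with limma 3.58.1 on log2 ratios, the TPM of one transcript over the TPM of the remaining transcripts of its gene (0.1 TPM added to each), for genes of at least 1 mean TPM and mean fractions from 0.05 to 0.95. Correlations and principal components used log2 CPM (prior count 2), the former over genes of at least 1 mean CPM. The scripts were tested on simulated data. Some genes of the lists are not reported here.

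The members and lists were chosen with earlier results of these data known. Named genes were the 6 members, Stub1, Synpo2, Sqstm1, Hsf1, Hspa8 and Cryab whatever their values, up to 4 genes per list with the largest change among those that passed, and the 3 genes most correlated with each member. Zyx, Hspa1a, Hspa1b, the markers shown and the genes named for low counts were named outside this rule, after their values were seen. Alternatives were DESeq2 1.42.0, edgeR with RLE size factors, without its filter, with a minimum mean count of 100 or with all samples fitted together, blocks on replicate number or code run, other pseudocounts (0.01 and 1 TPM) or filters (5 TPM or none) for usage, each sample left out in turn and, chosen after seeing the data, gene TPM with limma.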

Additional observations from a re-analysis of the deposited data

Results flagged for a closer look

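Among the 6 low-stretch cultures, replicate 1 lay far above the others for Hspa1b (188 CPM, a gap to the next culture of 0.82 of the whole range) and for Hspa1a (72.2 CPM, a gap of 0.80). Of 18 such groups of values, 1 for each gene with 6 cultures, these 2 stood out in this way. Chance gives about 1 in 20, and the genes are near-identical copies.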

How the results depend on the processing

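Under every alternative that could test them, Fblim1, Flna, Bag3 and Hspb1 kept a positive log2 fold change at both amplitudes. DESeq2 and the code run block moved Flna, Fblim1, Hspb1 and Bag3 past the threshold under low stretch, and dropping the filter moved Hspb1. Under high stretch, DESeq2, no filter, the code run block and gene TPM moved Hspb1, and all 15 samples in one fit and gene TPM moved Flna. The call on Arhgap24 under high stretch was lost on gene TPM (adjusted p = 0.132) and with a mean count of at least 100 (0.0522), and that on Chordc1 under low stretch without a filter, with that minimum, with all 15 samples or on gene TPM. Dnaja1 lost its low-stretch call with all 15 samples. The causes were not tested. Low counts limited Hspb8, with at most 26 in a library, and Hspb7 and Hspb9, and left Asb2, Hspb3 and Cryaa untested.

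The number of genes called under low stretch was 1181, with 2837 by DESeq2, 640 with all 15 samples, 6106 with the code run block and 220 (without unstretched replicate 3) to 1630 (without low-stretch replicate 5) when each sample was left out. Under high stretch it was 643, with 1403 by DESeq2, 1050 without a filter, 414 with a mean count of at least 100, 1488 with all 15 samples, 1546 with the code run block, 326 on gene TPM and 14 (without high-stretch replicate 3) to 1421 (without unstretched replicate 3) when each sample was left out. The difference of effects called 0 genes, or 3 with the code run block, and the unstretched groups differed in 12941 genes, or 7499 on gene TPM. Usage called 5 transcripts under low stretch, with 2 and 77 at pseudocounts of 0.01 and 1 TPM, 97 without a filter, 47 with the code run block and 2 to 11 when each sample was left out. Under high stretch it called 0, with 43 at a pseudocount of 1 TPM, 9 without a filter and 0 to 22 when each sample was left out.

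Log2 values that changed sign were these. On gene TPM, Cryab was -0.0033 and Hsf1 -0.079 under low stretch, Chordc1 -0.026 under high stretch, the difference of effects for Hspb1 0.062 and the unstretched difference of Fblim1 -0.11. Without a filter, Hsf1 and Stub1 were 0.0097 and 0.0062 under high stretch and the Hspb1 difference of effects 0.0042. That difference was 0.040 with a mean count of at least 100. With the code run block, Hsf1 was 0.0046 and Stub1 0.025 under high stretch, and the Hspb1 difference of effects 0.010. With each sample left out in turn, Flnc ranged from -0.095 to 0.013 and Hspb8 from -0.64 to 0.26 under low stretch. Under high stretch Flnc ranged from -0.25 to 0.031, Chordc1 from -0.13 to 0.35, Cryab from -0.44 to 0.022, Dnaja1 from -0.094 to 0.49, Hsf1 from -0.19 to 0.15 and Stub1 from -0.27 to 0.22. The difference of effects ranged from -0.025 to 0.19 for Bag3, -0.19 to 0.055 for Flnc, -0.29 to 0.52 for Hspb1 and -0.84 to 0.074 for Hspb8. Usage on the log2 scale ranged from -0.0057 to 0.13 for Flna-201 and -0.029 to 0.090 for Flnc-201 under low stretch, and from -0.25 to 0.86 for Flna-215 under high stretch.

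The titles share replicate numbers 1 to 3, and the labels do not say whether these pair the samples. The 3 same-numbered pairs in each experiment are too few to tell. The correlation of deviations from the group means of same-numbered samples averaged -0.07 (-0.44 to 0.36) in experiment 1. In experiment 2, where the number and the code run are the same, it averaged 0.18 (-0.16 to 0.45). For stretched and unstretched samples of one run in experiment 1 it averaged 0.44 (0.33 to 0.57). For the 12 pairs of different runs there it averaged -0.22 (-0.52 to -0.05). With the replicate block, fitted on the samples numbered 1 to 3, 490 genes were called under low stretch, 1546 under high stretch and 1 transcript for usage under low stretch. With it Fblim1 was 1.05 under low stretch (adjusted p = 0.0314), Rflnb was 1.38 (0.0685), Hspa1b passed at 1.94 (0.0471), Chordc1 and Dnaja1 there lost their calls at 0.37 and 0.36, Hspb1 under high stretch was 1.65 (1.95e-06), Hsf1 0.0046 and Stub1 0.025, the difference of effects for Flnc 0.12, and the usage of Flnc-201 under low stretch -0.016.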
